A study of Mus musculus with 60 samples.

Results

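IL6-induced mature hepatocytes (IL6-iMHs) of a single-cell clone, IL6-iMHs-clone-1 (P20), were compared with IL6-iMHs of 2 bulk lines, IL6-iMHs-mouse-1 (P10) and IL6-iMHs-mouse-2 (P10). The members were the RNA-seq samples of these 3 groups, 3 samples each and 9 of the 60 samples of the series, and the genes with at least 1 FPKM in 3 or more of the 9. FPKM counts fragments scaled to transcript length and to the mapped fragments of the sample, and 10492 passed of 16130 genes with a value above 0 in any of the 9. All cells came from the liver of C57BL/6 mice labelled wild type. They had first been expanded as hepatic progenitors (IL6-iHPCs) in medium with IL6, EGF and HGF, and were then matured in medium with dexamethasone and oncostatin M (OSM), so every matured group had met the same factors. P is the passage number. The bulk lines were each grown from the hepatocytes of 1 mouse, and clone-1 is a single clone grown from 1 hepatocyte. In the study its source mice carried Albumin-Cre and a Cre-dependent tdTomato reporter, which marks cells that had expressed Cre from the albumin promoter, whereas the labels give wild type. Clonality, 10 further passages and the donor mouse cannot be told apart in this design. The study describes its sequenced samples as technical repeats, so the p-values below measure the spread between such repeats and not between clones or mice. In bulk samples, fewer cells of a type and less RNA per cell cannot be told apart.

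Mature hepatocytes clear amino acids and ammonia, make and store glucose, oxidize drugs with cytochromes P450 and secrete most plasma proteins. Transcription factors such as HNF4A and the C/EBP family keep these genes on. Hepatocytes put into culture lose much of this programme and take up progenitor, biliary and stress genes, and a maturation medium is meant to bring the hepatocyte programme back.

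The values of each sample could be turned back into whole reads, which came to between 56.4 M and 88.9 M on genes over the 9 samples, with a median of 65.7 M. The second sample of mouse-1 (P10) stood apart from its repeats, and counts without each sample are given with the limits. The labels of clone-1 need one caution. On 4 Y-linked genes (Ddx3y, Eif2s3y, Kdm5d and Uty) the 3 matured clone-1 samples had 0 reads, as had all samples of both P10 lines, matured or progenitor. The 3 IL6-iHPCs-clone-1 (P20) samples had 6575 to 9095 reads on these genes, and primary hepatocytes had 994 to 1550. The progenitor and matured libraries labelled clone-1 therefore differed in whether Y-linked RNA was present, and values that rest on the progenitor library are named as such.

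The clonal matured cells carried both losses and gains against the bulk lines. Against the mean of the P10 lines, 1359 genes were higher in clone-1 (13% of the genes tested) and 684 were lower (6.52%). A gene was called at a Benjamini-Hochberg adjusted p under 0.05 (limma on log2(FPKM + 1)) and a change of at least 2-fold. In the same fit 749 genes (7.14%) differed between the P10 lines themselves, 114 higher and 635 lower in mouse-2 (6.05%). Against mouse-1 alone 935 genes were higher (8.91%) and 690 lower (6.58%), and against mouse-2 alone 2198 were higher (20.9%) and 780 lower (7.43%). Taking both, 778 genes were higher against each line (7.42%) and 489 lower (4.66%). Of these, 15 were higher and 26 were lower by at least 16-fold, and 2 and 14 by at least 32-fold. All 3 clone-1 samples lay above all 6 P10 samples for 4388 genes (41.8%) and below them for 2185 (20.8%), so separation of the samples alone was common. Of the genes tested, 291 were under 1 FPKM in all 3 clone-1 samples and 358 in all 6 P10 samples. Each of these passed the filter through the other side alone, so its direction was largely fixed. Over all genes tested the log2 fold change had a median of 0.24, and of 0.03 after quantile normalization. With that scaling the split was 852 higher and 923 lower, so the medians of gene groups below are to be read against 0.24, and the excess of higher over lower genes depended on the scaling.

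**Figure D1:**
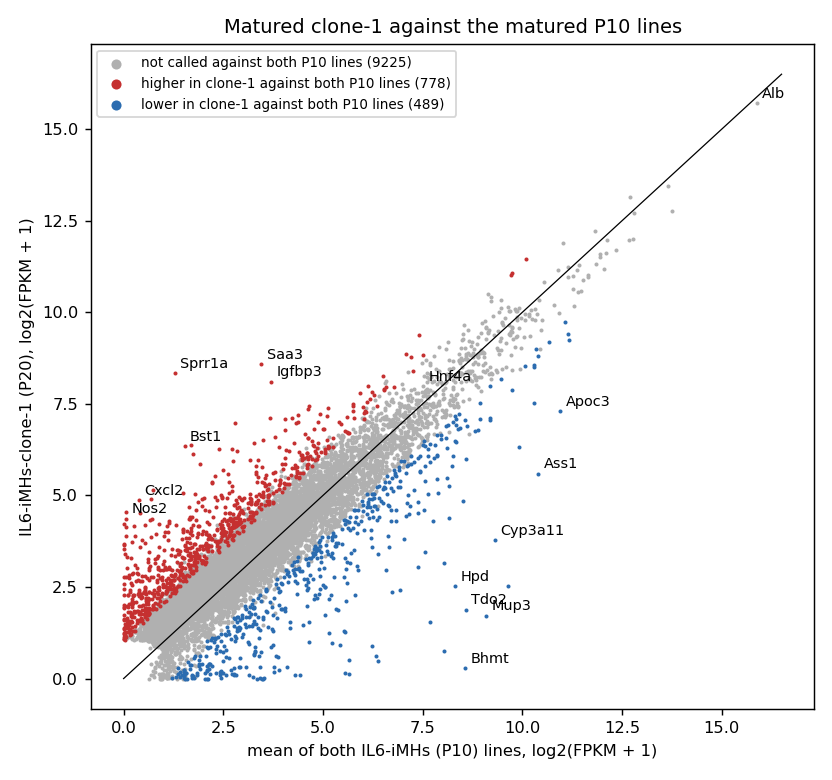
Mean log2(FPKM + 1) of the 3 clone-1 (P20) samples (vertical axis) against the mean of both P10 lines (horizontal axis), 1 point per gene tested, with genes called higher (778) or lower (489) against both lines in red and blue and a line where the sides are equal. Bhmt, Mup3 and Tdo2 lie far under the line and Sprr1a far above it, and Alb and Hnf4a lie close to it.

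Genes of amino acid catabolism were among those furthest lower in clone-1. Bhmt, the betaine-homocysteine methyltransferase that remakes methionine, was at 0.197, 0.176 and 0.264 FPKM in the clone-1 samples, and at 331 to 406 FPKM (median 379) in the 6 P10 samples. Its log2 fold change was -8.28 (SE 0.06, limma adjusted p = 1.07e-16). It was nearly silent in each clone-1 sample, while primary hepatocytes had a mean of 2245 FPKM. Tdo2, tryptophan dioxygenase, was at 2.64, 2.71 and 2.64 FPKM against 228 to 670 (median 402), a log2 fold change of -6.70 (SE 0.09, limma adjusted p = 6.17e-14). The sample groups were far apart for both genes. Hpd, which breaks down a product of tyrosine, was at 4.55, 3.50 and 6.46 FPKM against 249 to 417 (median 302), a log2 fold change of -5.80 (SE 0.14, limma adjusted p = 3.54e-12). Fah, the last enzyme of that pathway and one the study stained, kept more of its level: 113, 104 and 120 FPKM against 291 to 365 (median 346), a log2 fold change of -1.56. Tat, the first enzyme of the pathway, had a log2 fold change of -2.95. Ass1, a urea cycle enzyme, was at 44.4, 35.3 and 67.4 FPKM against 1014 to 2019 (median 1261), a log2 fold change of -4.80. Arg1, the last urea cycle enzyme, was not called, with 287, 258 and 363 FPKM in clone-1 against 278 to 859, so the groups overlapped. Its log2 fold change was 0.02 against mouse-1 and -1.36 against mouse-2. Of the 31 genes of the urea cycle and amino acid list, 30 passed the filter, and 2 of these passed through the P10 lines alone. Of the 30, 14 were lower (46.7%, beside 6.52% of all genes) and 1 was higher (3.33%, beside 13%). The median log2 fold change was -0.79. The higher one was Gldc, the glycine cleavage decarboxylase, at 1.24.

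Most cytochromes P450 that passed the filter were lower. Of 45 genes, 27 passed, 18 were lower (66.7%, beside 6.52% of all genes) and 1 was higher (3.7%, beside 13%). The median log2 fold change was -1.96. Of the 27, 5 were under 1 FPKM in all 3 clone-1 samples. These 5 passed the filter through the P10 lines alone, so they could hardly be higher in clone-1. Cyp3a11, a main drug-oxidizing enzyme of the mouse liver, was at 11.7, 15.4 and 11.3 FPKM in clone-1 and at 394 to 972 FPKM (median 696) in the P10 lines. The log2 fold change was -5.54 (SE 0.12, limma adjusted p = 1.39e-12). Cyp2c29, another drug-metabolizing P450, was at 0.414, 0.427 and 0.347 FPKM against 27.5 to 267 (median 111). Both have close paralogs, so reads could be split among family members. Cyp2e1, which oxidizes ethanol, was under 0.1 FPKM in each clone-1 sample and at 3.28 to 6.65 FPKM in the P10 samples, so it was low on both sides next to the 2733 ± 142 FPKM (SD, n = 3) of primary hepatocytes. The higher member was Cyp2c70, which makes muricholic acids from bile acids, at 59.4, 66.4 and 64.8 FPKM against 19.5 to 23.4, a log2 fold change of 1.52. Of 22 genes of bile acid synthesis and transport that passed, 8 were lower (36.4%) and 3 were higher (13.6%, near the 13% of all genes). The lower ones included the uptake carriers Slco1a1 (-3.79) and Slc10a1 (-2.99, log2 fold changes), and the higher ones were led by Cyp39a1 at 1.42. Of the 22, 5 passed through the P10 lines alone and 1 through clone-1 alone.

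Most carbohydrate genes were lower too, with 14 lower (73.7%, beside 6.52% of all genes) and 1 higher (5.26%, beside 13%) of 19. Their median log2 fold change was -1.58, and 2 of the 19 passed the filter through the P10 lines alone. Fbp1, the fructose bisphosphatase of gluconeogenesis, was at 0.864, 1.04 and 0.666 FPKM against 52.6 to 115 (median 69.7), a log2 fold change of -5.34. Ppp1r3c, which directs glycogen synthesis, had a log2 fold change of -4.49. The exception was Pck2, the mitochondrial phosphoenolpyruvate carboxykinase, at 111, 115 and 108 FPKM against 27.1 to 34.4, a log2 fold change of 1.81. Thrsp, a regulator of fatty acid synthesis, was at 0.386, 0.633 and 0.608 FPKM against 41.1 to 156. Among 24 genes of sterol and fatty acid synthesis 5 were lower (20.8%) and 1 higher (4.17%), and 2 passed through the P10 lines alone. Among 24 genes of fatty acid oxidation 5 were lower (20.8%) and 0 higher by limma (0 higher by limma voom on reads, 3 at an unadjusted p under 0.05 at any fold). The periportal list of 18 genes had 6 lower (33.3%) and 3 higher (16.7%, near the share of all genes). The pericentral list had 4 lower (44.4%) and 1 higher (11.1%) of 9 that passed. In these lists 1 periportal and 3 pericentral genes passed through the P10 lines alone.

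Some secreted proteins were lower too. Of 32 plasma protein genes, all passed, 6 were lower (18.8%, beside 6.52% of all genes) and 1 was higher (3.12%, beside 13%), with a median log2 fold change of -0.20. For 17 of the 32 the clone-1 samples all lay below the P10 samples, beside 20.8% of all genes tested. For 6 they all lay above, beside 41.8%. Alb, albumin, was at 51420, 55160 and 53740 FPKM in clone-1 and at 55470 to 63710 FPKM (median 60820) in the P10 lines. The clone-1 samples all lay below the P10 samples by a log2 fold change of -0.18 that was not called (limma adjusted p = 0.286). Apoc3, an apolipoprotein that slows triglyceride clearance, was at 151, 146 and 173 FPKM against 1375 to 3051, a log2 fold change of -3.66, and Apoc1 had one of -2.76. The major urinary proteins Mup3 and Mup20 had log2 fold changes of -7.37 and -7.12. They belong to a cluster of near-identical genes, and how reads were split among copies is uncertain. LOC108168162, a gene known by its number only, had a log2 fold change of -7.27. Of 14 coagulation genes that passed, 3 were lower (21.4%), led by Plg (plasminogen) at -4.11, and 1 was higher, F5 (coagulation factor V) at 2.35.

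**Figure D2:**
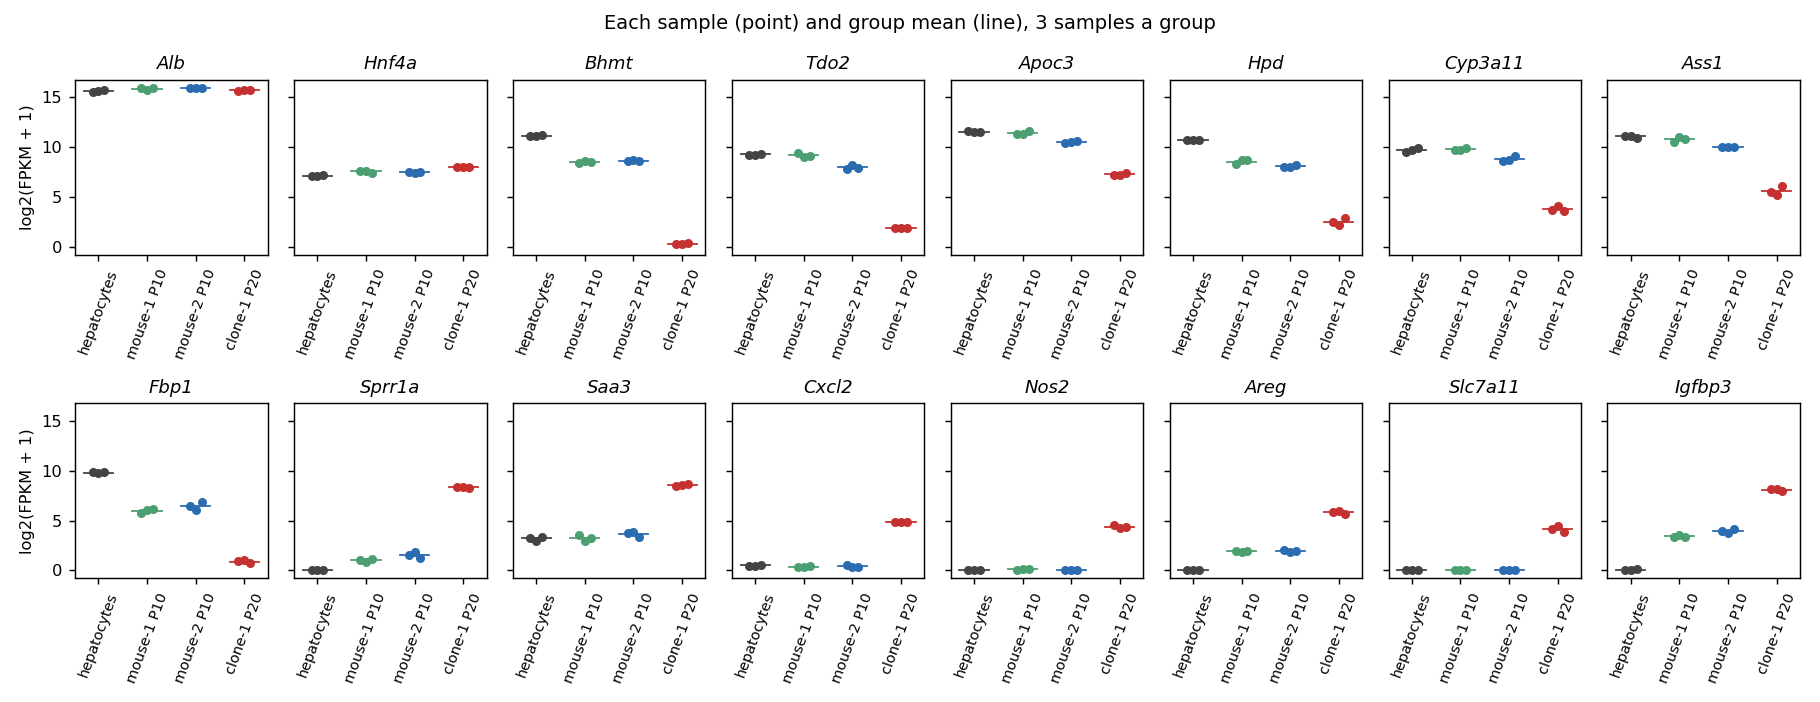
Log2(FPKM + 1) of 16 genes in primary hepatocytes, both matured P10 lines and matured clone-1 (P20), with 1 point per sample, a line at the group mean and 3 samples a group. From Bhmt to Fbp1 the clone-1 points lie under all P10 points, from Sprr1a to Igfbp3 they lie above them, and for Alb and Hnf4a the groups lie close together.

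Of 24 transcription factors that maintain hepatocytes, 19 passed, 1 was higher (5.26%, beside 13% of all genes) and 2 were lower (10.5%, beside 6.52%), with a median log2 fold change of 0.03. After quantile normalization 4 were lower. Of the 19, 1 passed the filter through the P10 lines alone. Hnf4a was at 250, 249 and 256 FPKM against 166 to 195 (median 183), so it was the clone-1 samples that lay higher. Its log2 fold change of 0.46 (limma adjusted p = 1.33e-05) was under 2-fold. Cebpa was at -0.52, Foxa2 at 0.65 and Onecut1 at 0.07 (log2 fold changes, none called). The lower ones were Nr1h3, the oxysterol receptor LXR alpha, at -1.60, and Thrb, a thyroid hormone receptor, at -1.0. The higher one was Cebpb, a C/EBP factor of acute responses, at 189, 175 and 176 FPKM against 20.7 to 102, a log2 fold change of 1.74 (SE 0.33, limma adjusted p = 0.000293).

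The promoter stretches of the genes shown next come from RefSeq (GRCm38.p6, the same coordinates as mm10), read 5′ to 3′ on the strand of the gene. They are of a gene that was far lower and a pair that were far higher, and are shown because each window holds letters of a factor known to act in hepatocytes (HNF4) or in responses to stress and inflammation (AP-1 and NF-kB). Capitals mark the match to the letters searched, on either strand, in a window from 250 bases before to 50 bases after the start site. The letters were CAAAGTCCA for HNF4, TGANTCA for AP-1 and GGGANTTTC for NF-kB, where N is any base.
Cyp3a11 (chr5:145879925-145879993, minus strand, HNF4): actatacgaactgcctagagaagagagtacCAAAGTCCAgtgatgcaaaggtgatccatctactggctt
Sprr1a (chr3:92485961-92486057, minus strand, AP-1): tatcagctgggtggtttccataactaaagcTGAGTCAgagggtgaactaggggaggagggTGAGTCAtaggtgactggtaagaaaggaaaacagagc
Cxcl2 (chr5:90903772-90903840, plus strand, NF-kB): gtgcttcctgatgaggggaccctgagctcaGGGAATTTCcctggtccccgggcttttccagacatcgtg

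Of 32851 promoter windows in the table, 0.475% held the HNF4 letters, 7.81% the AP-1 letters, 1.11% the NF-kB letters, 12.4% those of the antioxidant response element and 13.6% those of the TATA box, both given next. Windows could be matched for 572 of the 778 genes higher against both lines (785 windows) and for 368 of the 489 lower ones (506 windows). The HNF4 letters stood in 1.38% of the windows of lower genes and in 0.637% of those of higher genes, against 0.495% of the windows of all genes tested. The AP-1 letters stood in 8.1% of the lower and 8.54% of the higher windows, against 5.22%. The NF-kB letters stood in 1.19% of the lower and 1.27% of the higher windows, against 0.943%. The letters TGACNNNGC of the antioxidant response element, which NRF2 binds, stood in 11.9% of the lower and 14.4% of the higher windows, against 14.5%. A TATA box, TATAAA, stood in 10.1% of the lower and 9.17% of the higher windows, against 7.12%. In the called genes these shares rest on 5 to 113 windows, and they describe letters, not binding.

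On the other side, the gene that gained most was Sprr1a, a cornified envelope protein of squamous and injured epithelia. It was at 326, 335 and 307 FPKM in clone-1 and at 0.733 to 2.64 FPKM (median 1.3) in the P10 lines, a log2 fold change of 7.06 (SE 0.12, limma adjusted p = 1.86e-13). It was listed at 0 in primary hepatocytes. Next came Saa3, an acute phase serum amyloid, at 363, 378 and 414 FPKM against 6.87 to 13.4 (median 10.1), a log2 fold change of 5.14 (SE 0.13, limma adjusted p = 4.52e-12). Bst1, an ectoenzyme of NAD metabolism, was at 81.9, 81 and 77.4 FPKM against 0.779 to 3.84, and Akap12, a kinase anchoring protein, at 85.6, 85.7 and 74.5 FPKM against 1.79 to 2.73. Their log2 fold changes were 4.81 and 4.67. Igfbp3, which binds insulin-like growth factors, was at 291, 278 and 254 FPKM against 8.92 to 17.4, a log2 fold change of 4.41. The other genes among the 10 highest were Cxcl2 and Nos2, described next, Arg2 (mitochondrial arginase, 4.48), Ptprn (a receptor-type phosphatase-like protein of secretory granules, 4.42) and Pcolce (a procollagen proteinase enhancer, 4.38). The groups did not overlap for any of these 10, which follows from choosing the largest changes among genes called against both lines.

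A list of targets of NF-kB, the transcription factor of inflammatory signalling, was written after values had been seen. Of 23 that passed, 12 were higher (52.2%, beside 13% of all genes) and 0 lower by limma (0 lower by voom, 2 at an unadjusted p under 0.05). Their median log2 fold change was 1.11. Of the 23, 4 were under 1 FPKM in every P10 sample and passed through clone-1 alone. Because the list was written from these values, its count cannot say whether such targets moved as a set. Cxcl2, a neutrophil chemokine, was at 27.5, 28.3 and 28.8 FPKM against 0.260 to 0.416 (median 0.274), a log2 fold change of 4.49 (SE 0.06, limma adjusted p = 4.53e-14). Nos2, inducible nitric oxide synthase, was at 21.7, 18.5 and 18.8 FPKM against 0.0159 to 0.0867, a log2 fold change of 4.31. The list for NRF2, the factor that answers oxidative stress, was again written after values had been seen, so the same limit holds. It gave 14 higher (56%) and 0 lower of 25 by limma (0 lower by voom, 5 at an unadjusted p under 0.05). The median was 1.16, and 1 of the 25 passed through clone-1 alone. Slc7a11, the cystine importer for glutathione synthesis, was at 16.4, 21.7 and 13.1 FPKM against 0.0352 to 0.0541, a log2 fold change of 4.09. G6pdx, the first enzyme of the pentose phosphate pathway, had one of 3.57 and Gsta4, a glutathione transferase, one of 3.18. With quantile normalization the NRF2 list had 13 higher and 1 lower and the NF-kB list 10 higher. In the wider list of conjugating enzymes 9 were higher (34.6%) and 4 lower (15.4%, beside 6.52% of all genes) of 26. Of the 26, 1 passed through clone-1 alone. Against the P10 lines this side of drug metabolism thus did not move with the P450 genes. Lower there were Gnmt, the glycine methyltransferase, at -3.67, and Nnmt, a methyltransferase too, at -1.72.

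Higher members also stood in lists of growth factor and cell shape genes, beside 13% of all genes. Of 6 EGF receptor ligands that passed (a list also written after values had been seen), 4 were higher. Areg, amphiregulin, was at 59.0, 63.1 and 48.9 FPKM against 2.54 to 3.17, a log2 fold change of 3.93, and Btc (betacellulin) and Ereg (epiregulin) had 3.23 and 2.70. YAP and TEAD targets, which follow cell shape and growth, had 13 higher (48.1%) and 1 lower of 27 and a median of 0.93. Among them Tgfb2, a TGF-beta ligand, had a log2 fold change of 3.30 and Ankrd1 one of 2.87. Quantile normalization left 10 higher. Epithelial junction genes had 11 higher and 0 lower of 22 by limma (0 lower by voom, 3 at an unadjusted p under 0.05), with Cldn3, a claudin, at 2.41 and Gjb2, a connexin of hepatocytes, at 2.06. Of 30 biliary and progenitor markers, 16 passed, 8 were higher and 1 was lower. Sox4, a factor of biliary development, was at 77.2, 76.5 and 74.6 FPKM against 4.22 to 7.34, a log2 fold change of 3.55, and Cd44 had 2.15. The lower one was Sox9, a biliary master factor, at 1.09, 1.03 and 0.862 FPKM against 3.09 to 4.54, a log2 fold change of -1.27. Krt19, a bile duct keratin, went the other way, at 104, 111 and 106 FPKM against 40.4 to 53.4, a log2 fold change of 1.2. Of 17 oncofetal genes measured, 8 passed and 6 were higher, among them Peg3 at 3.13 and Afp, fetal alpha-fetoprotein, at 2.09. Of 33 mesenchymal genes, 19 passed, 7 were higher (36.8%), led by Sparc at 3.53, and 1 was lower. Of 41 Wnt genes 20 passed, with 6 higher (30%) and 0 lower by limma (0 lower by voom, 2 at an unadjusted p under 0.05). Of 20 Notch genes 10 passed, with 3 higher and 2 lower. Through clone-1 alone passed 3 mesenchymal genes, 2 YAP and TEAD targets, and 1 each of the oncofetal, junction, Wnt and Notch genes. Through the P10 lines alone passed 2 mesenchymal genes, 2 Wnt genes and 1 biliary marker. The direction of all these was largely fixed.

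**Figure D3:**
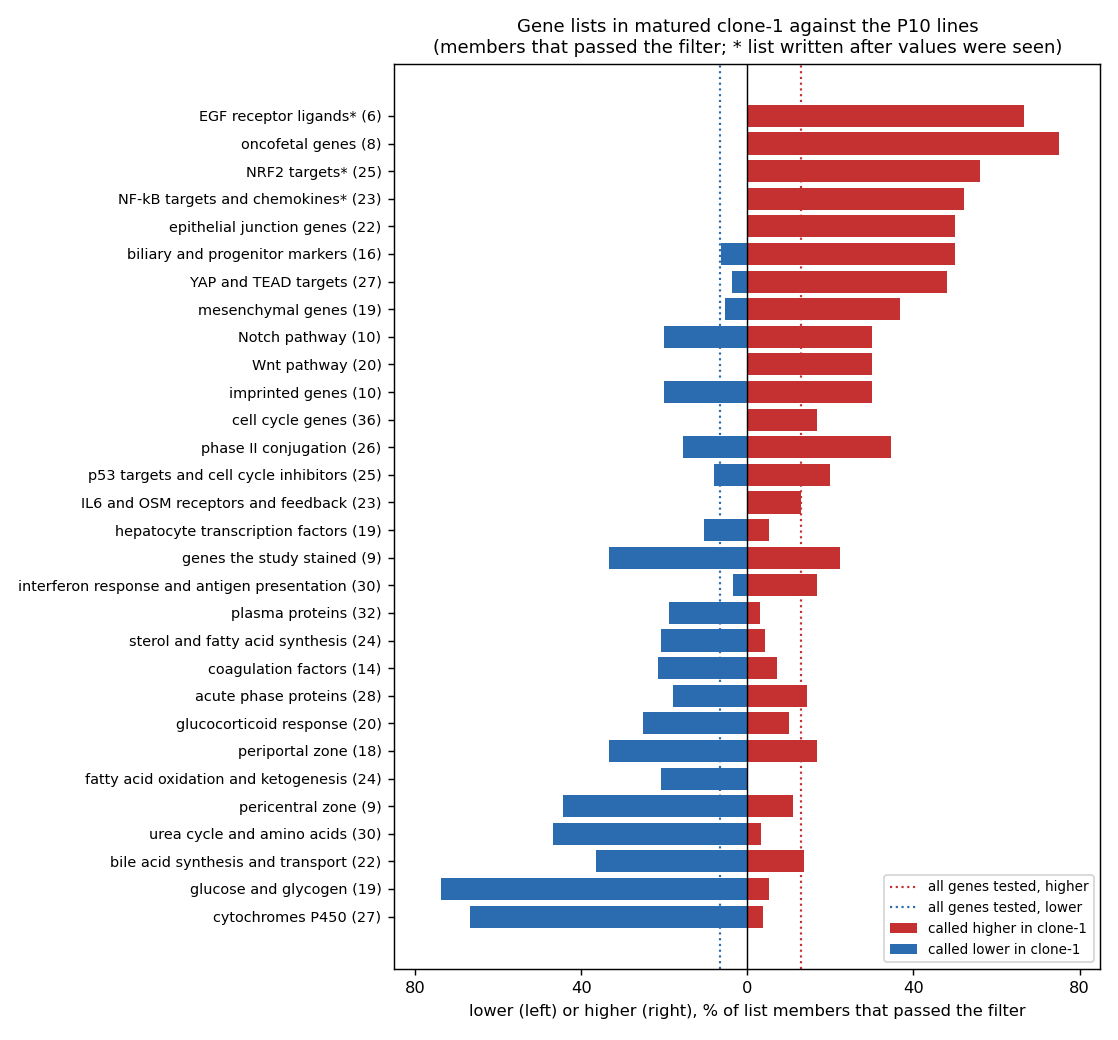
Percent of list members that passed the filter called lower (blue, to the left) or higher (red, to the right) in matured clone-1 against the P10 lines, for lists with at least 6 such members (number in brackets), ordered by median log2 fold change, with dotted lines at 6.52% and 13% for all genes tested and a star at lists written after values were seen. Blue bars are longest for the carbohydrate genes (73.7%) and the P450 genes (66.7%), and red bars for the oncofetal genes (75%) and the EGF receptor ligands (66.7%).

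Of 36 cell cycle genes that passed, 6 were higher (16.7%, beside 13% of all genes) and 0 lower by limma (0 lower by voom, 4 at an unadjusted p under 0.05), with a median of 0.51. Of the 36, 2 passed the filter through clone-1 alone. The count of higher ones depended on the processing, with 2 after quantile normalization and 14 by voom and at a pseudocount of 0.1. Ccnd1, cyclin D1, was at 59.2, 57.2 and 55.6 FPKM against 20 to 28.7, a log2 fold change of 1.25. Mki67, the marker of dividing cells, was under the filter, at 0.131 to 0.349 FPKM in clone-1 and 0.0303 to 0.292 FPKM in the P10 lines. Of the other genes the study stained, Glul, the pericentral glutamine synthetase, had a log2 fold change of 0.30 (not called) and Cyp1a2 one of -1.26, called against the mean of the P10 lines but not against each. Of 25 p53 targets and cell cycle inhibitors, 5 were higher (20%), led by Pmaip1, a cell death gene, at 3.01. Another 2 were lower (8%, beside 6.52% of all genes), described below. Of the 25, 2 passed through the P10 lines alone and 1 through clone-1 alone.

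Among genes of the response to IL6 and OSM the share of higher members was that of all genes. Of 23 that passed, 3 were higher (13%) and 0 lower by limma (0 lower by voom, 6 at an unadjusted p under 0.05), with a median of 0.19. The 3 were Osmr, the OSM receptor subunit, at 15, 14.8 and 14.3 FPKM against 2.32 to 3.10 (log2 fold change 2.12), Jak2, its kinase (1.96), and Socs2, a feedback inhibitor (1.04). Acute phase proteins split, with 4 higher (14.3%, beside 13% of all genes) and 5 lower (17.9%, beside 6.52%) of 28. Beside Saa3, Hamp, the iron hormone hepcidin, was at 15.1, 12.2 and 14.0 FPKM in clone-1 and at no more than 0.250 FPKM in any P10 sample, with a mean of 1108 FPKM in primary hepatocytes. Il1rn, the IL1 receptor antagonist, had a log2 fold change of 3.66. Saa2 and Saa1 had -3.46 and -2.09 and Orm2 (an orosomucoid) -2.40, all with close paralogs. Glucocorticoid response genes had 2 higher (10%) and 5 lower (25%) of 20, with Igfbp1 at 1.33 and Lpin1, a phosphatidate phosphatase, at -2.14. Interferon genes had 5 higher (16.7%) and 1 lower (3.33%) of 30, near the shares of all genes, with Oasl1 at 2.42. The imprinted list had 3 higher (30%) and 2 lower (20%) of 10. Through clone-1 alone passed 2 acute phase, 2 interferon and 2 imprinted genes and 1 gene of the IL6 and OSM list. Through the P10 lines alone passed 3 interferon genes and 1 each of the acute phase, glucocorticoid and imprinted genes.

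A few genes had no reads in clone-1. Chosen after their values were seen, 7 genes had 0 reads in all 3 clone-1 samples and at least 1 FPKM in all 6 P10 samples, among them Sult4a1, Cdkn2a, Twist1, AF529169, Sgce and Cdkn2b. Cdkn2a (chr4:89274473-89294619), which encodes the cell cycle inhibitors p16 and p19, had 179 to 259 reads in the P10 samples, a mean of 3.31 ± 0.47 FPKM (SD, n = 6). Cdkn2b (chr4:89306289-89311032), the neighbouring inhibitor p15, had 636 to 1197 reads, 9.26 ± 1.86 FPKM (SD, n = 6). The next gene, Mtap (chr4:89137370-89181090), a methionine salvage enzyme, was kept in clone-1 with 3102, 3601 and 3485 reads. Progenitor libraries labelled clone-1 did have reads, 132 to 150 on Cdkn2a and 35 to 62 on Cdkn2b, and so did mouse-1 (P35), with 20 to 35 and 575 to 639. Sgce (chr6:4674350-4747204), an imprinted sarcoglycan, had 1034 to 1614 reads in the P10 samples. Its neighbour Peg10 (chr6:4747306-4760517), imprinted too, had 57 to 180, and both had 0 in clone-1. Matured mouse-1 (P35) had 34 to 57 reads on Sgce and 4 to 14 on Peg10, so low values were not particular to clone-1. Progenitors labelled clone-1 had 8 to 10 and 0 to 1, and mouse-1 (P35) progenitors 1230 to 1330 and 466 to 591. On AF529169 matured mouse-1 (P35) had 10 to 34 reads, and on Twist1 735 to 751. A count of 0 reads allows up to 3 reads per library, which here is counting error only. In the opposite direction 4 genes had 0 reads in all 6 P10 samples and at least 1 FPKM in clone-1: Trim54, Clca3a1, Twist2 and Cdh13.

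Lower genes were frequent among genes of primary hepatocytes and higher genes among genes of progenitors, beside 6.52% and 13% of all genes. Of 567 genes at least 4-fold higher in hepatocytes than in the passaged progenitors, 256 were lower in clone-1 than in the P10 lines (45.1%). Another 29 were higher (5.11%), and the median log2 fold change was -0.88. Of the 567, 70 were under 1 FPKM in all 3 clone-1 samples, as were 291 of the 10492 genes tested. These 70 passed the filter through the P10 lines alone, so their direction was largely fixed. Of 2434 genes at least 4-fold higher in progenitors, 48 were lower (1.97%) and 756 higher (31.1%), with a median of 0.72. The progenitor count depended on the scaling. After quantile normalization, which also reset the classes, 282 progenitor genes were higher and 33 lower, and 44 hepatocyte genes higher and 358 lower, whereas 1463 progenitor genes were higher and 116 lower at a pseudocount of 0.1. The progenitor groups of this split include the library labelled clone-1. In the remaining 7491 genes 380 were lower and 574 higher. The hepatocyte level was nearer the P10 level than the clone-1 level for 1276 of the 1359 higher genes (93.9%) and for 467 of the 684 lower ones (68.3%), beside 74.4% of all genes tested. For the remaining lower genes clone-1 was thus the nearer side.

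**Figure D4:**
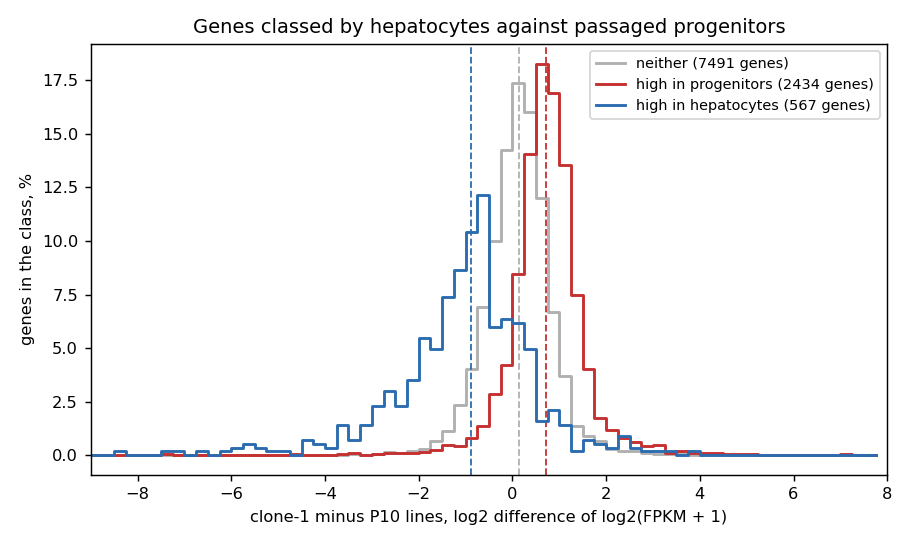
Distribution of the log2 difference of clone-1 (P20) minus the P10 lines (horizontal axis) as percent of the genes of a class (vertical axis), for 567 genes high in hepatocytes (blue), 2434 high in progenitors (red) and 7491 others (grey), with dashed lines at the medians of -0.88, 0.72 and 0.14. The blue curve has a long tail to the left and the red curve lies to the right of the grey one.

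The distance to hepatocytes, taken as the mean squared difference of log2(FPKM + 1) over all genes tested, was 3.14, 3.12 and 3.00 for the clone-1 samples. It was 2.32, 2.10 and 2.26 for mouse-1 (P35), 1.98, 2.03 and 1.86 for mouse-1 (P10) and 1.63, 1.63 and 1.59 for mouse-2 (P10). The matured samples thus ranked clone-1, P35, mouse-1 (P10) and mouse-2 (P10) without overlap. The mean squared difference of clone-1 was 1.72 times that of the P10 lines, a ratio of squared values. The excess was spread over many genes: 673 genes held 50% of what clone-1 added. Net of genes that moved closer, 6912.5 of a summed excess of 14434 lay in the called higher genes, 3016.4 in the called lower genes and 4505 in genes not called. Among the 10 largest single shares were those of Bhmt (0.77%), Mup3 (0.763%), Mup20 (0.495%), Cyp2c29 (0.481%), Sprr1a (0.47%), Fbp1 (0.463%), Hpd (0.428%), Tdo2 (0.375%) and Ifi27 (0.37%). Ifi27, an interferon-induced gene, was at 0.5, 0.234 and 0.521 FPKM in clone-1 and at 29.2 to 70.3 FPKM in the P10 lines. Of these 10 genes, Sprr1a was the 1 that was higher in clone-1.

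A bulk line with more passages than clone-1, mouse-1 (P35), was compared too. Against it 852 genes were higher (8.12%) and 563 lower (5.37%) in clone-1, 13.5% of those tested. Of the 1359 genes higher against the P10 lines, 601 were also higher against P35, 750 were not called and 8 were lower. Of the 684 lower genes, 319 were also lower, 353 not called and 12 higher. All 20 genes of the 10 highest and 10 lowest were called the same way against P35. Bhmt had a log2 fold change of -5.67 against P35 and Sprr1a one of 6.42. The size of the change was far smaller than against the P10 lines for Saa3 (1.498), Bst1 (1.092) and Thrsp (-1.775). Saa3 was at 125 to 157 FPKM in matured P35, so a level above the P10 lines was not particular to clone-1. Of the 20 genes, Akap12, Igfbp3, Mup3 and Mup20 had a larger change against P35 and the others a smaller one. Arg1, not called against the P10 lines, was higher than in P35, by a log2 fold change of 3.96. Some gene lists read differently against P35, beside 8.12% higher and 5.37% lower of all genes. Conjugating enzymes had 0 higher and 4 lower of 26, and NRF2 targets 5 higher and 1 lower of 25. Carbohydrate genes had 7 lower and 0 higher of 19, and acute phase proteins 18 higher and 0 lower of 28. Counts stayed similar for P450 genes (17 lower, 2 higher), amino acid genes (15 lower, 1 higher) and NF-kB targets (12 higher, 0 lower). Both comparisons share the clone-1 samples, so their counts are not independent.

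At the progenitor stage, with the caution given on the library labelled clone-1, 2096 genes were higher (20%) and 761 lower (7.25%), 27.2% in all, against the progenitors of both P10 lines. The excess of higher genes depended on the scaling, with 1261 higher and 1221 lower after quantile normalization. Of the 1359 genes higher in matured clone-1, 459 were already higher, 857 were not called and 43 were lower. Of the 684 lower genes, 197 were already lower, 399 not called and 88 higher. Tested as a difference between stages, 3617 genes (34.5%) differed, and among them were 17 of the 20 genes at the extremes. Those 20 were chosen on their matured values, which enter the difference, so the 17 are no separate result. Bhmt was near the floor in progenitors, at 0 FPKM in the samples labelled clone-1 and at 0.147 to 2.01 FPKM in the P10 lines. Its log2 fold change there (-0.70, not called) could therefore show little difference. In matured cells the gap was wide, and the difference between stages was -7.58 (SE 0.25, limma adjusted p = 1.06e-14). Cyp3a11 had 0.81 in progenitors and a difference of -6.35, and Ass1 was higher in the progenitors (3.46) but lower in the matured cells. Sprr1a reversed as well, from -2.0 in progenitors to 7.06. Saa3, at 5.68 in progenitors and 5.14 in matured cells, and Mup20, at -6.32 and -7.12, had the same direction at both stages and no called difference. Krt19 was higher at both stages, by 5.0 and 1.2.

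**Figure D5:**
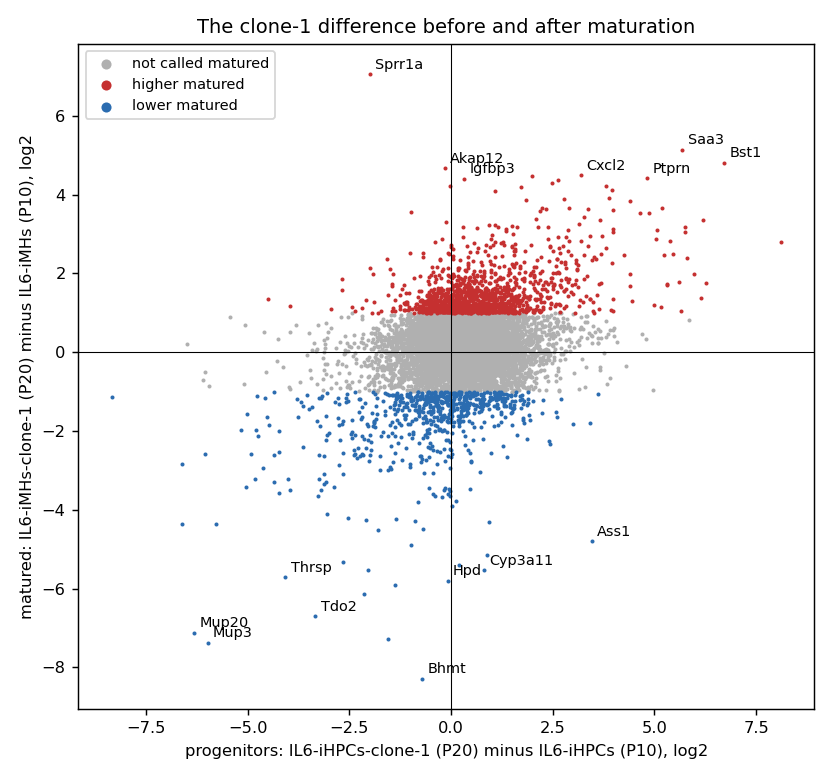
Log2 difference of clone-1 (P20) from both P10 lines in progenitors (horizontal axis) and in matured cells (vertical axis), 1 point per gene tested, with genes called higher or lower in matured cells in red and blue. Saa3 and Bst1 lie high and Mup3 and Mup20 low at both stages, whereas Sprr1a and Ass1 lie on opposite sides of 0 at the stages. Bhmt and Hpd, both near the floor in progenitors, lie near 0 on the horizontal axis.

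Most markers of other liver cells were low in the 9 matured samples. The summed level of 15 Kupffer cell markers was 18.4 to 20.3 FPKM in clone-1 and 1.46 to 4.62 FPKM in the P10 lines. Matured mouse-1 (P35) had 32.7 to 40.9 FPKM, so a high sum was not particular to clone-1. Nearly all of the clone-1 sum was Cd68, a lysosomal glycoprotein, at 18.2 to 20.2 FPKM. The other 14 summed to 0.162 to 0.277 FPKM in clone-1 and to 1.09 to 3.68 FPKM in the P10 lines. Among them Csf1r went the opposite way to Cd68 and was lower, at 0.162 to 0.21 FPKM against 1 to 3.51. In clone-1, 12 of the 14, Clec4f, Adgre1 and Timd4 included, were at 0 in each sample. The 17 stellate cell and fibroblast markers summed to 13.5 to 16 FPKM in clone-1 and 1.79 to 3.52 in the P10 lines, and without Ecm1 to 0.159 to 0.339 and 0.145 to 0.643. Of the 15 endothelial markers, Oit3 was higher (log2 fold change 1.02), the sum was 3.09 to 3.12 FPKM against 0.843 to 1.73, and Cdh5 and Lyve1 were at 0 in all 9 samples. The 8 measured red cell markers summed to less than 1 FPKM in each sample, and 0 of them passed the filter.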

How the data were processed

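RNA-seq values came from 1 deposited table with 33 samples in 11 groups, in which per the labels each group has 3 samples. The other 2 deposited tables were not used here. The authors' values are FPKM, a unit inferred from the values and from Cufflinks 1.3.0, which the submitters' processing notes name together with TopHat 1.4.1 and mm10. Genes are identified by symbol only, 27 date-like symbols were not named, and whole reads were recovered from the FPKM for 18111 of 18111 genes (tolerance 0.05), with the step of 1 sample corrected by a factor of 2. Depth was 49.3 M to 88.9 M reads per sample. Replicates were compared for duplication by the chi-square per gene (13.8 to 141 within groups of the 9 samples), and none were duplicates.

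Genes with at least 1 FPKM in 3 of the 9 samples were kept and log2(FPKM + 1) was fitted with limma 3.58.1 (R 4.3.3, with trend), contrasting clone-1 with the mean of the P10 lines, with each line, with P35, and at the progenitor stage, and testing the difference between stages. Fold changes are on the log2(FPKM + 1) scale and understate low genes. Genes were called at a Benjamini-Hochberg adjusted p (all genes tested) under 0.05 and 2-fold. Scripts were tested on simulated data. Alternatives covered the pseudocount, filter, scaling, fold, samples fitted, replicate block, voom on recovered reads and each sample left out.

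Named genes were the 10 highest and 10 lowest called against both lines with a mean of at least 10 FPKM on the higher side (date-like symbols and predicted Gm and Rik genes left out), up to 3 called genes at either end of each list, the stained and sex-linked genes, the 10 genes with the largest share of the excess distance, and the 10 highest and lowest transcription factors of the lists. Some of the list and distance genes are left out, and some genes are not reported here. The groups and lists were chosen with earlier results of these data known, and the NRF2, NF-kB and EGF receptor ligand lists were written after values were seen. Promoters are RefSeq sequences of GRCm38.p6.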

Additional observations from a re-analysis of the deposited data

Results flagged for a closer look

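The clone-1 contrast differed between the progenitor and the matured stage for 3617 genes by a test of the difference itself (limma, difference of contrasts, adjusted p under 0.05 and 2-fold). Of the 20 genes at the extremes, chosen on matured values that enter this difference, 17 were among them. Among these the differences (matured minus progenitor, log2) were 9.06 for Sprr1a, 4.83 for Akap12, 4.08 for Igfbp3, 2.48 for Arg2, 1.82 for Nos2, 1.74 for Pcolce and 1.29 for Cxcl2, so clone-1 stood higher in the matured than in the progenitor comparison for these genes. Bst1, at -1.90, was higher at both stages and less so in matured cells. They were -7.58 for Bhmt, -6.35 for Cyp3a11, -5.73 for LOC108168162, -5.71 for Hpd, -4.51 for Cyp2c29, -3.37 for Tdo2, -1.64 for Thrsp and -1.39 for Mup3. These values rest on the progenitor library labelled clone-1. In the progenitors compared, Bhmt was at no more than 2.01 FPKM and Hpd at no more than 0.143 FPKM. For these genes little difference could show there, so the difference between stages mostly restates the matured gap.

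Y-linked genes gave a signal outside the matured comparison. The 3 IL6-iHPCs-clone-1 (P20) samples had 6575 to 9095 reads on 4 Y-linked genes, where the matured clone-1 samples and the P10 lines had 0. Whether the progenitor and matured samples labelled clone-1 are of the same cells was not tested.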

How the results depend on the processing

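Under the alternatives, 493 values of named genes kept their direction and side of the threshold and 1 reversed, and 182 counts and ratios stayed within 1.5 times and 28 moved. Leaving out 1 sample at a time gave 1311 to 1418 higher and 671 to 708 lower genes in the matured comparison, 735 to 817 and 469 to 524 against both P10 lines, 110 to 132 and 539 to 777 between the P10 lines, 808 to 910 and 545 to 573 against P35, 2046 to 2173 and 733 to 775 between progenitors, 1470 to 1638 and 1989 to 2102 for the difference between stages, and a distance ratio of 1.718 to 1.727.

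Quantile normalization gave 852 higher genes in the matured comparison, 249 lower between the P10 lines, 1261 higher and 1221 lower between progenitors, 44 hepatocyte genes higher and 282 progenitor genes higher, and a log2 fold change of 0 for Alb, in place of -0.18, which that scaling fixes because Alb was the highest gene in each of the 9 samples, so that it counts as the reversed value. A pseudocount of 0.1 gave 178 higher and 1444 lower genes between the P10 lines, 57 hepatocyte genes higher, and 116 progenitor genes lower and 1463 higher. A filter at 5 FPKM (7591 genes) gave 1035 higher genes for the difference between stages, and limma voom on recovered reads gave 2151 higher genes in the matured comparison. Classes set against the first culture gave 31 progenitor genes lower. The distance ratio was 1.946 over 307 genes with a MAD over 2 and 1.666 with a pseudocount of 0.1. Without a fold threshold 5705 genes were higher and 2898 lower (4225 and 2162 against both lines), at 1.5-fold 3166 and 1448 (1913 and 1086), and at 4-fold 197 and 167 (155 and 131). The cause of these shifts was not tested, except that fewer genes pass a higher fold or filter. The replicate block left 1359 higher and 684 lower genes, the same counts as without it. Same-numbered samples correlated between -0.259 and 0.236, so the numbers do not pair the samples. Depth limits genes near 1 FPKM.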
